A study of Homo sapiens with 9 samples.

Results

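LIN28A, LIN28B, HMGA1, HMGA2, IGF2BP1, IGF2BP2 and IGF2BP3 are 7 genes of the oncofetal type, active in embryonic tissue and in many tumours. They were taken by symbol. They are 7 of the 21417 symbols in the deposited table, hold 15 of its 38759 transcript rows, and all 7 were among the 14473 genes tested. Their levels were measured in total RNA of H9, a human embryonic stem cell line, in 3 groups of 3 libraries. Neuroectoderm, the precursor of the nervous system, was taken at day 5 of culture with NOGGIN (200 nM), which binds and blocks BMP, and SB431542 (10 µM), which inhibits the receptors of activin and Nodal. Mesendoderm, the precursor of mesoderm and endoderm, was taken at day 5 of culture in mTeSR1 with BMP4 (5 ng/ml). The hESC group is the undifferentiated line at day 0, kept on Matrigel in mTeSR1, and all 9 libraries come from this 1 line without any genetic change named in the labels. Whether libraries of a group are from separate cultures is not stated, and the p-values therefore refer to the spread among these libraries, which could be technical.

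LIN28A and LIN28B are RNA-binding proteins that stop the maturation of the microRNA let-7, and let-7 in turn binds sites in the messages of both LIN28 genes, of HMGA2 and of the IGF2BP genes. HMGA1 and HMGA2 are small proteins that bend AT-rich DNA and open chromatin. IGF2BP1, IGF2BP2 and IGF2BP3 bind messages, among them that of the growth factor IGF2, and govern their stability, transport and translation. In pluripotent cells LIN28A is best known as a marker and as one of the factors used to reprogram somatic cells.

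The sequences that join these genes are the let-7 seed, its match in their messages and the motif by which LIN28 recognises let-7 hairpins. Of the 12 human let-7 family genes searched in RefSeq (GRCh38.p14), all carry the same seed, bases 2 to 8 of the mature strand, shown in capitals below for let-7d and let-7i, the family members whose rows changed in these data, and for let-7a. The GGAG motif that the zinc knuckles of LIN28 bind is in capitals in the hairpins of let-7d (chr9:94178834-94178920, plus strand) and let-7i (chr12:62603686-62603769, plus strand), and it is missing from the hairpin of miR-98 (chrX:53556223-53556341, minus strand). GGAG, searched on the hairpin strand only, was found in 9 of the 12 let-7 family hairpins (75%) and in 43.4% of 1562 human hairpins.
hsa-let-7a-5p: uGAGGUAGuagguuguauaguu
hsa-let-7d-5p: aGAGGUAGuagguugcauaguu
hsa-let-7i-5p: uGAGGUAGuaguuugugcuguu
let-7d hairpin: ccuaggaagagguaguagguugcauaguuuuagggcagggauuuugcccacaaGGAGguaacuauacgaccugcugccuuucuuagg
let-7i hairpin: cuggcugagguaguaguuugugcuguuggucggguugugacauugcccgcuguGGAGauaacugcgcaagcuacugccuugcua
miR-98 hairpin: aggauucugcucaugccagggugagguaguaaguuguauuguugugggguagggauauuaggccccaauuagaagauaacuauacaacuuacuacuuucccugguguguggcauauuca

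Every member had at least 1 perfect match to the let-7 seed, CTACCTC, in the 3′ untranslated region (UTR) of its main row, as annotated in GENCODE v29 (GRCh38). The transcript strand alone was searched, and 9.71% of 19120 such regions of protein-coding genes hold the 7 bases. LIN28B, IGF2BP1 and the long HMGA2 transcript had 4 matches each, and LIN28A, HMGA1, IGF2BP2 and IGF2BP3 had 1 each. The short HMGA2 transcript, NM_003484, whose UTR has 397 bases against 3003 in the long one, had none. For comparison, the longest UTR of each protein-coding gene was cut to the member's length if it was at least as long. The members' own genes were not left out. The share with at least 1 match was 22.2% for LIN28B, 30.3% for IGF2BP1, 16.8% for long HMGA2, 17.8% for LIN28A, 11.8% for IGF2BP3, 8.8% for IGF2BP2 and 7.8% for HMGA1. The share with at least 4 matches was 0.19% at the length of LIN28B, 0.26% at that of IGF2BP1 and 0.0% at that of long HMGA2. Windows around the first match are given for each member, and for HMGA2 around a second, with the 7 matching bases in capitals. They lie at chr1:26427352-26427375 (LIN28A), chr6:105078816-105078839 (LIN28B), chr6:34245833-34245856 (HMGA1), chr12:65963302-65963325 and chr12:65964537-65964560 (HMGA2) and chr17:49051065-49051088 (IGF2BP1), all on the plus strand. The windows at chr3:185644215-185644238 (IGF2BP2) and chr7:23311790-23311813 (IGF2BP3) are on the minus strand. A match is a description of the letters and not a shown binding site.
LIN28A: agcctattgaaCTACCTCattttt
LIN28B: ggttgcaaagtCTACCTCatgcaa
HMGA1: ctgttcacaaaCTACCTCtggaca
HMGA2, match 1: acgttcgatttCTACCTCagcagc
HMGA2, match 2: actactcaataCTACCTCtgaatg
IGF2BP1: tgcgaagtaaaCTACCTCaaggta
IGF2BP2: cacagaagaagCTACCTCaggtgt
IGF2BP3: tttttactcaaCTACCTCaggtat

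Depth and group identity were checked before the members were compared. The low values of each library step by whole reads, which places the denominators of the RPKM values (reads scaled to transcript length and to library depth) at 36.9 to 70.0 M reads. A member's row then rested on an estimated 2055 reads (IGF2BP2) to 74090 reads (LIN28A). Summed over 9 neuroectoderm markers, levels were 283 to 371 RPKM in neuroectoderm, 6.40 to 7.39 in mesendoderm and 34.8 to 41.1 in hESC, and LHX2 and SIX3 stayed under 1 RPKM in neuroectoderm. The 9 streak and mesendoderm markers summed to 102 to 156 RPKM in mesendoderm, against 0.73 to 1.18 in neuroectoderm and 0.67 to 1.12 in hESC, but the endoderm factors FOXA2 and SOX17 were under 1 RPKM in mesendoderm. Of 11 amnion and trophoblast markers, 10 were in the table, and they summed to 5.01 to 7.72 RPKM in neuroectoderm, 151 to 247 in mesendoderm and 6.83 to 9.26 in hESC. The pluripotency markers other than LIN28A, 7 in number, summed to 74.8 to 98.8 RPKM in neuroectoderm, 180 to 289 in mesendoderm and 635 to 660 in hESC. NANOG averaged 0.127 ± 0.0503 RPKM in neuroectoderm, 12.2 ± 5.56 in mesendoderm and 22 ± 1.28 in hESC (SD, n = 3 each), and 3 of the 7 were under 1 RPKM in neuroectoderm and 0 in the other groups. The part of these cell types in the members' levels was not tested. In bulk RNA, fewer cells of a type and less RNA per cell cannot be told apart.

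Neuroectoderm replicate 1, mesendoderm replicate 1 and hESC replicate 2 stood apart from their groups. In these libraries the deviation of a gene from its group mean fell with the GC content of its transcript (Spearman correlations across genes, which are not independent replicates, of -0.563, -0.29 and -0.619), whereas the other 6 libraries had 0.195 to 0.587. Deviations from a group mean balance out within the group, so a negative correlation in 1 library tends to bring positive ones in the others. The sign alone does not show which library is the odd one, and neuroectoderm replicate 2 had 0.587. Among the members the GC trend concerns HMGA1 most, since its transcript is 60.4% GC and richer in GC than those of 84.1% of genes. LIN28B lies at the other end with 38.1% GC.

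LIN28A, the LIN28 gene best known in pluripotent cells, stayed near its hESC level in neuroectoderm and was lower in mesendoderm. It is a gene of 4 exons on chromosome 1 (chr1:26410778-26429722, plus strand, GRCh38). It had 285.39, 264.08 and 274.52 RPKM in the neuroectoderm libraries, 174.04, 172.34 and 176.44 RPKM in the mesendoderm libraries, and 278.93, 340.80 and 300.92 RPKM in the hESC libraries. Neuroectoderm and hESC overlapped, and the mesendoderm libraries lay below all others. On the log2(RPKM + 1) scale, which is used for all differences, neuroectoderm minus hESC was -0.16 ± 0.15 (SE; 95% interval -0.50 to 0.19; limma adjusted p = 0.441). Mesendoderm minus hESC was -0.81 ± 0.15 (adjusted p = 0.00308), leaving mesendoderm at 56.8% of the hESC mean. The lineages also differed from each other, with neuroectoderm above mesendoderm by 0.65 ± 0.15 (adjusted p = 0.00633). The call against hESC held under all 25 alternatives tried for it, and that between the lineages under all 26.

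LIN28B, the paralogue on chromosome 6 (chr6:104957048-105083332, plus strand), was an order of magnitude less abundant per length than LIN28A and took another course. Its levels were 33.99, 26.62 and 27.44 RPKM in neuroectoderm, 23.28, 17.75 and 19.61 RPKM in mesendoderm and 19.50, 25.41 and 20.93 RPKM in hESC. All 3 neuroectoderm libraries lay above every other library, although hESC replicate 2 came close, and mesendoderm overlapped with hESC. Neuroectoderm minus hESC was 0.40 ± 0.15 (interval 0.05 to 0.75) and did not pass the threshold (limma adjusted p = 0.0611). It passed without hESC replicate 2 (0.51, adjusted p = 0.0371) and without the 3 libraries that stood apart (0.40, adjusted p = 0.00624). These libraries were picked by their deviations in the same data, so neither p-value is independent support. In all, the difference passed in 4 of 25 alternatives, among them a correction for GC content, alone and with the replicate number as a block. That correction was chosen after seeing the data. Mesendoderm minus hESC was -0.11 ± 0.15 (adjusted p = 0.614). Neuroectoderm was above mesendoderm by 0.52 ± 0.15 (adjusted p = 0.0216), a call lost without mesendoderm replicate 2 (0.43, adjusted p = 0.0807) or mesendoderm replicate 3 (0.50, adjusted p = 0.0696).

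**Figure D1:**
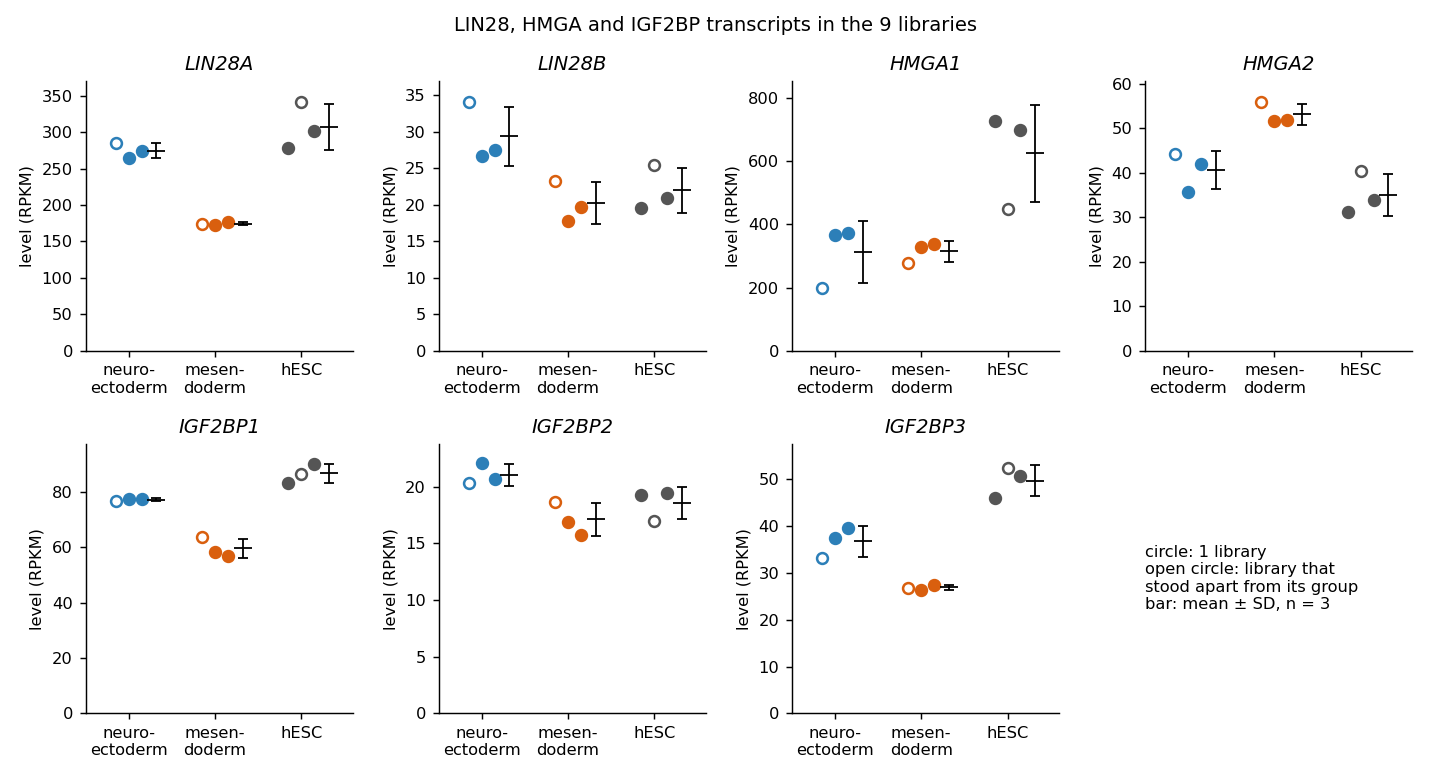
Level in RPKM (y axis, from 0) of each of the 7 genes in the neuroectoderm, mesendoderm and hESC libraries; circles are libraries, open circles the 3 that stood apart, bars the mean ± SD of 3. LIN28A and IGF2BP3 are lowest in mesendoderm, LIN28B is highest in neuroectoderm, HMGA2 is highest in mesendoderm and HMGA1 is lower in both lineages than in hESC.

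HMGA1 had the highest mean of the members in each group, though in neuroectoderm its libraries overlapped with those of LIN28A, and it was lower in both lineages. The gene lies on chromosome 6 (chr6:34236873-34246231, plus strand). It had 198.82, 367.63 and 371.17 RPKM in neuroectoderm, 277.03, 328.67 and 339.22 RPKM in mesendoderm, and 726.06, 449.36 and 697.55 RPKM in hESC. Every differentiated library lay below every hESC library, and the lowest library of each group was the one that stood apart. The difference from hESC was -1.02 ± 0.30 in neuroectoderm (limma adjusted p = 0.0218) and -0.96 ± 0.30 in mesendoderm (adjusted p = 0.0349). Between neuroectoderm and mesendoderm it was -0.06 ± 0.30 with an interval of -0.74 to 0.62, so that a difference in either direction of up to about these bounds would not have been seen (adjusted p = 0.877).

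The HMGA1 calls depended on single libraries and on the model. The call in neuroectoderm was lost without hESC replicate 1 (-0.90, limma adjusted p = 0.0759), without hESC replicate 3 (-0.92, adjusted p = 0.0771), and in a fit of only the 6 libraries of neuroectoderm and hESC (adjusted p = 0.0595). That in mesendoderm was lost without hESC replicate 1, hESC replicate 3 or any 1 of the 3 mesendoderm libraries, with differences of -1.01 to -0.83 and adjusted p-values of 0.0752 to 0.111, and with the replicate number as a block (adjusted p = 0.0621). Without the 3 libraries that stood apart the differences were -0.94 in neuroectoderm (adjusted p = 0.00106) and -1.09 in mesendoderm (adjusted p = 0.000835). Those libraries were picked by their deviations in these same data, which can narrow the spread, so the smaller p-values are not independent support. HMGA1 has 6 rows in the table, which share most of their reads, and their differences were -1.03 to -1.01 in neuroectoderm and -0.96 to -0.95 in mesendoderm. GENCODE v29 names 8 HMGA1 pseudogenes, and how reads with several matches were counted is not given in the sources used here, so the level of HMGA1 is uncertain to that extent.

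HMGA2, its relative on chromosome 12 (chr12:65824131-65966295, plus strand), was higher in mesendoderm, where HMGA1 was lower. The long transcript had 44.10, 35.76 and 42.03 RPKM in neuroectoderm, 55.90, 51.68 and 51.85 RPKM in mesendoderm, and 31.13, 40.31 and 33.81 RPKM in hESC. The mesendoderm libraries lay above all others, and neuroectoderm overlapped with hESC. Mesendoderm minus hESC was 0.59 ± 0.14 (limma adjusted p = 0.00932). This call was lost under 2 alternatives, rescaling without small RNA genes (0.49, adjusted p = 0.159) and quantile normalization (0.52, adjusted p = 0.102). Neuroectoderm minus hESC was 0.21 ± 0.14 (interval -0.10 to 0.52, adjusted p = 0.251). Neuroectoderm minus mesendoderm was -0.38 ± 0.14 (adjusted p = 0.0445), and this call was lost in 14 of 26 alternatives. With the replicate number as a block in the 6 libraries of the lineages, whose numbers were taken to pair them, it had an adjusted p of 0.067. In 6 of the 14 a single library was left out (hESC replicate 3, neuroectoderm replicate 2 or 3, or any mesendoderm library, with differences of -0.41 to -0.30 and adjusted p-values of 0.0709 to 0.130).

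The short HMGA2 row, the one with no seed match in its UTR, had 14.11, 20.48 and 23.28 RPKM in neuroectoderm, 22.98, 26.61 and 23.06 RPKM in mesendoderm, and 18.74, 15.30 and 18.35 RPKM in hESC. Mesendoderm again lay above hESC without overlap, by 0.45 ± 0.18 (limma adjusted p = 0.0762 among the 27809 transcript rows tested together). The ratio of the long to the short row was 2.23 ± 0.78 in neuroectoderm, 2.21 ± 0.248 in mesendoderm and 2.05 ± 0.518 in hESC (SD, n = 3 each). In exact two-sided permutation tests this ratio gave p = 0.7 for each lineage against hESC and p = 0.9 between the lineages, where 3 against 3 libraries cannot go below 0.1. The spread of the ratio in neuroectoderm came from replicate 1, with 3.13 against 1.75 and 1.81 in the other libraries.

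IGF2BP1, the most abundant of the 3 IGF2BP messages, was lower in mesendoderm. The gene has 15 exons on chromosome 17 (chr17:48997412-49055650, plus strand). Levels were 76.74, 77.69 and 77.43 RPKM in neuroectoderm, 63.71, 58.27 and 56.98 RPKM in mesendoderm, and 83.46, 86.73 and 90.27 RPKM in hESC. No groups overlapped, with neuroectoderm between mesendoderm, the lowest, and hESC, the highest. Mesendoderm minus hESC was -0.53 ± 0.11 (limma adjusted p = 0.0062), a call held under all 25 alternatives. Neuroectoderm minus hESC was -0.17 ± 0.11 (interval -0.42 to 0.09, adjusted p = 0.276), and its sign turned under quantile normalization (0.08). Neuroectoderm was above mesendoderm by 0.37 ± 0.11 (adjusted p = 0.0249). That call was lost without neuroectoderm replicate 2 or 3 or mesendoderm replicate 2 or 3, with differences of 0.34 to 0.37 and adjusted p-values of 0.0535 to 0.103. It was also lost in a fit of only the 6 libraries of the lineages (adjusted p = 0.0582), with the replicate block in all libraries (adjusted p = 0.0707) and with the block in those 6 (adjusted p = 0.0814).

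IGF2BP3 fell in both lineages, and further in mesendoderm. It is read from the minus strand of chromosome 7 (chr7:23310209-23470467). Its levels were 33.11, 37.50 and 39.58 RPKM in neuroectoderm, 26.74, 26.38 and 27.45 RPKM in mesendoderm, and 45.92, 52.28 and 50.65 RPKM in hESC. The 3 groups did not overlap. The difference from hESC was -0.86 ± 0.11 in mesendoderm (limma adjusted p = 0.000416), the smallest adjusted p of any member, and the lineages differed by 0.43 ± 0.11, neuroectoderm above mesendoderm (adjusted p = 0.0119). The first held under all 25 alternatives and the second under all 26. In neuroectoderm the difference was -0.43 ± 0.11 (adjusted p = 0.0143), lost without hESC replicate 3 (-0.41, adjusted p = 0.0546), under rescaling without small RNA genes (-0.30, adjusted p = 0.173) and under quantile normalization (-0.26, adjusted p = 0.138). Exons of MALSU1 on the other strand overlap those of IGF2BP3, and the use of strand in counting is not given in the sources used here. MALSU1 had 8.38 to 21.67 RPKM over the 9 libraries.

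IGF2BP2, the form that also persists in many adult tissues, passed in no comparison. It lies on the minus strand of chromosome 3 (chr3:185643975-185825024). It had 20.29, 22.11 and 20.70 RPKM in neuroectoderm, 18.63, 16.92 and 15.77 RPKM in mesendoderm, and 19.26, 16.96 and 19.45 RPKM in hESC. The neuroectoderm libraries lay above all others by a small margin, and mesendoderm overlapped with hESC. The difference from hESC was 0.17 ± 0.11 in neuroectoderm (limma adjusted p = 0.222) and -0.11 ± 0.11 in mesendoderm (adjusted p = 0.461). Between neuroectoderm and mesendoderm it was 0.29 ± 0.11 (interval 0.04 to 0.53, adjusted p = 0.0531), just short of the threshold, and it passed in 10 of 26 alternatives.

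Counted together, 2 of the 7 members passed an adjusted p under 0.05 in neuroectoderm against hESC, both lower, where 44.2% of all tested genes passed, 21.9% higher and 22.3% lower. In mesendoderm against hESC, 5 of 7 passed, 1 higher and 4 lower, beside 35.1% of all genes, 17% higher and 18.1% lower. Between neuroectoderm and mesendoderm, 5 of 7 passed, 4 higher in neuroectoderm and 1 lower, beside 48.1% of all genes, 24% higher and 24.1% lower. The libraries of the groups did not overlap for 5 members when neuroectoderm was set against hESC, for 5 when mesendoderm was, and for 6 between the lineages. Among all tested genes these shares were 51.9%, 54.7% and 57.2%. Median differences of the members were -0.16, -0.53 and 0.37 in these comparisons, against medians of all tested genes of -0.02, -0.02 and -0.01. The comparisons with hESC share their hESC libraries. In neuroectoderm the count depends on single libraries, with 1 member left without hESC replicate 1 and 0 in limma without hESC replicate 3, where 2 members had an unadjusted p under 0.05. Between the lineages 3 members were left without neuroectoderm replicate 2 or 3, and 2 without mesendoderm replicate 2 or 3. With the replicate block in the 6 libraries of the lineages 3 were called, all higher in neuroectoderm (LIN28A, LIN28B and IGF2BP3).

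**Figure D2:**
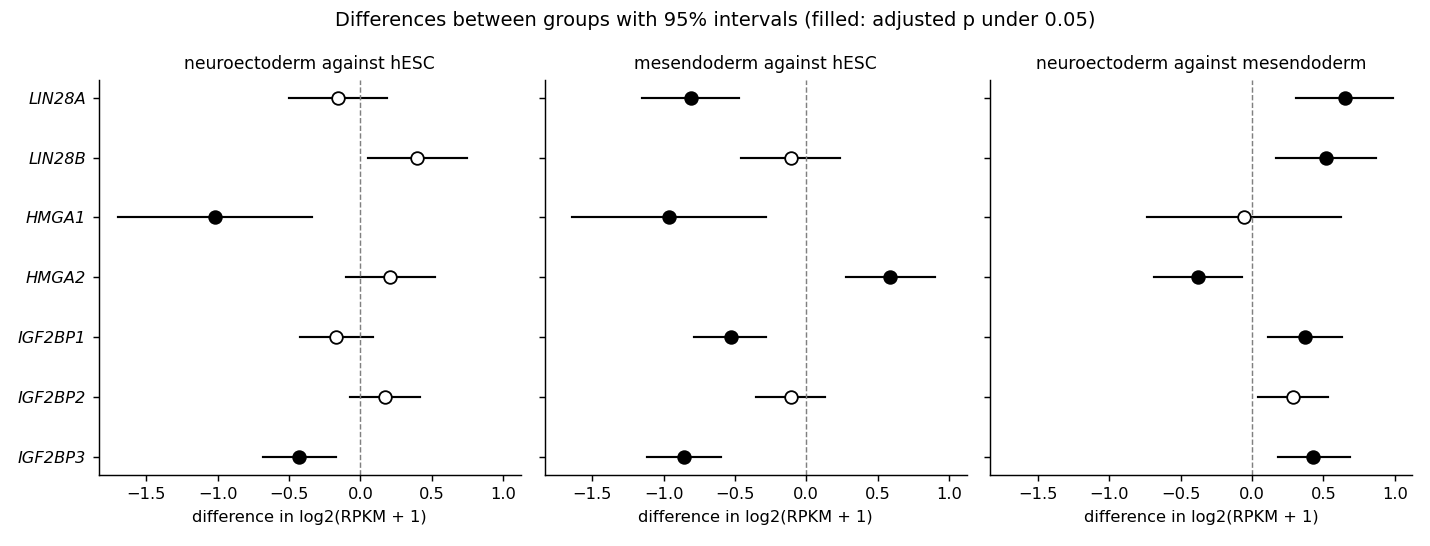
Difference in log2(RPKM + 1) (x axis) for each of the 7 genes in neuroectoderm against hESC, mesendoderm against hESC and neuroectoderm against mesendoderm; points are limma estimates, lines 95% intervals, filled points have an adjusted p under 0.05. In mesendoderm LIN28A (-0.81), HMGA1 (-0.96), IGF2BP1 (-0.53) and IGF2BP3 (-0.86) lie below 0 and HMGA2 (0.59) above it.

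All 7 members were well expressed, above 75.7% to 98.8% of tested genes in each group. Per length, the order in hESC was HMGA1, LIN28A, IGF2BP1, IGF2BP3, HMGA2, LIN28B and IGF2BP2, with no overlap between the libraries of neighbours. In neuroectoderm HMGA2 stood ahead of IGF2BP3 and LIN28B. There IGF2BP3 overlapped with both HMGA2 and LIN28B, which did not overlap with each other, and HMGA1 overlapped with LIN28A. In mesendoderm HMGA2 stood between IGF2BP1 and IGF2BP3, apart from both, and LIN28B overlapped with IGF2BP2.

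Ratios of members within a library are free of the scaling of that library, and those given here were chosen after the levels were seen. The ratio of LIN28A to LIN28B was 9.44 ± 0.905 in neuroectoderm, 8.73 ± 1.14 in mesendoderm and 14.0 ± 0.537 in hESC (SD, n = 3 each). Every library of either lineage had a lower ratio than every hESC library, whereas the lineages overlapped with each other. The ratio of HMGA1 to HMGA2 was 7.87 ± 3.0 in neuroectoderm, 5.95 ± 0.868 in mesendoderm and 18.4 ± 6.40 in hESC, again with both lineages below every hESC library. The margin was small in neuroectoderm, with 10.3 in replicate 2 against 11.1 in hESC replicate 2. In each group the lowest ratio was in the library that stood apart. HMGA1 has 60.4% GC and HMGA2 45.3%, and a ratio is not freed of the GC trend, whose part was not tested. Among the IGF2BP genes, IGF2BP1 to IGF2BP3 was 2.12 ± 0.185 in neuroectoderm, 2.22 ± 0.154 in mesendoderm and 1.75 ± 0.0832 in hESC. IGF2BP2 to IGF2BP3 was 0.575 ± 0.0466 in neuroectoderm, 0.638 ± 0.0612 in mesendoderm and 0.376 ± 0.048 in hESC, and both of these ratios were higher in every differentiated library than in every hESC library.

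Of the ratios examined, HMGA2 to IGF2BP3 separated all 3 groups, at 1.12 ± 0.195 in neuroectoderm, 1.98 ± 0.102 in mesendoderm and 0.705 ± 0.057 in hESC. It was above 1 in each mesendoderm library and below 1 in each hESC library. Each ratio without overlap gave p = 0.1 in an exact two-sided permutation test of the log2 ratios, the smallest that 3 against 3 libraries allow, and 0.162 after Benjamini-Hochberg adjustment over the 21 tests. The comparisons of ratios therefore cannot pass 0.05 at this sample size.

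**Figure D3:**
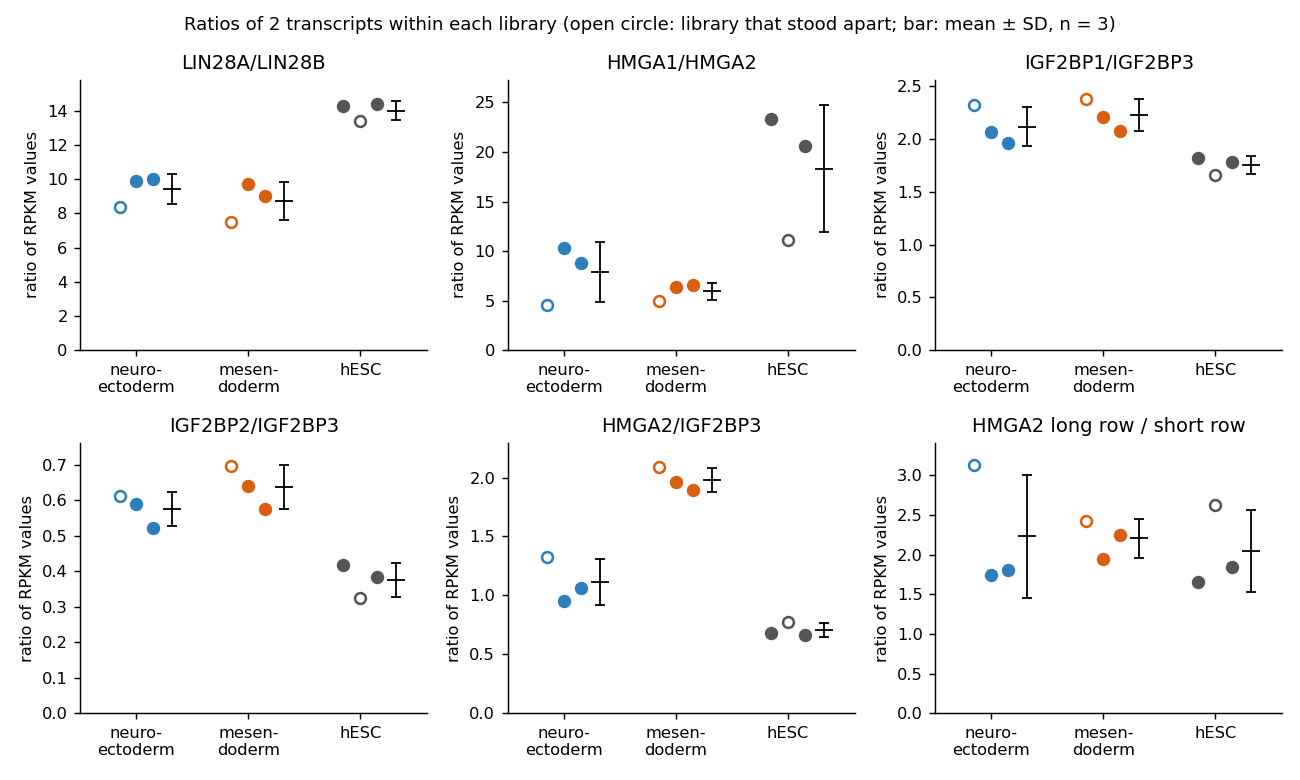
Ratio of the RPKM values of a pair of transcripts within each library (y axis, from 0) in neuroectoderm, mesendoderm and hESC; circles are libraries, open circles the 3 that stood apart, bars the mean ± SD of 3. LIN28A to LIN28B and HMGA1 to HMGA2 are highest in hESC, HMGA2 to IGF2BP3 is highest in mesendoderm, and the long to short HMGA2 ratio overlaps between all groups.

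Likeness between members was measured as the root mean square difference of their centred log2(RPKM + 1) profiles over the 9 libraries, with no test. LIN28A, IGF2BP1 and IGF2BP3 formed the closest set, with distances of 0.15 (LIN28A to each IGF2BP) and 0.16. HMGA1 and HMGA2 were the farthest pair, at 0.78, and LIN28A and LIN28B were 0.32 apart. Among the 8046 other genes of at least 5 RPKM, the nearest to LIN28A were MMP16 (0.069), PHF14 (0.076) and SMARCC1 (0.079), the last a subunit of the BAF chromatin remodelling complex. Those nearest to LIN28B were CERS6 (0.045), EPC2 (0.053) and N4BP2L2 (0.058). HMGA1 had no neighbour as close, with LSR (0.12), PTMA (0.12) and EFHD2 (0.14). RCOR1, CPD and KBTBD2 were nearest to HMGA2, each at 0.07. The nearest to IGF2BP1 were MAPRE2 (0.043), NCKIPSD (0.05) and SOCS7 (0.053). CNPY3 (0.051), ZNF3 (0.064) and NUP214 (0.065) lay nearest to IGF2BP2, and OSBPL1A (0.059), BPTF (0.078) and TOB2 (0.082) to IGF2BP3.

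The let-7 family, the main target of LIN28, could be read only through its precursor rows, which do not separate hairpins from longer primary transcripts or mature strands. Rows of 7 of the 12 genes were in the table, and all passed the minimum level. Each rested on an estimated 0 to 51 reads in a library, so the values are coarse. MIRLET7I was lower in mesendoderm, with 3.52, 2.90 and 3.76 RPKM in neuroectoderm, 0.76, 0.64 and 0 RPKM in mesendoderm and 1.17, 2.85 and 3.76 RPKM in hESC. Every mesendoderm library lay below every other library. In estimated reads the mesendoderm libraries had 3, 2 and 0 and hESC replicate 1 had 4, so the separation from that library is slight. The difference was -1.26 ± 0.30 in mesendoderm against hESC (limma adjusted p = 0.0108) and 1.62 ± 0.30 in neuroectoderm against mesendoderm (adjusted p = 0.00198).

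MIRLET7D had 9.34, 1.48 and 3.07 RPKM in neuroectoderm, 0.49, 1.56 and 1.15 RPKM in mesendoderm, and 5.94, 12.78 and 4.84 RPKM in hESC. Mesendoderm lay below all hESC libraries and overlapped with neuroectoderm. Mesendoderm minus hESC was -2.03 ± 0.51 (limma adjusted p = 0.0137), a call lost without mesendoderm replicate 1 (-1.81, adjusted p = 0.0533). Without the 3 libraries that stood apart, picked by their deviations in these same data, it was -1.44 (adjusted p = 0.00254, not independent support). The other 5 rows passed in no comparison. Of the 7 rows, 0 passed in neuroectoderm against hESC, 2 were lower in mesendoderm against hESC and 1 was higher in neuroectoderm against mesendoderm. Their medians were -0.46, -0.79 and 0.31. Among all tested genes 44.2%, 35.1% and 48.1% were called, with medians of -0.02, -0.02 and -0.01. In all rows but MIRLET7I the highest hESC library was replicate 2 and the highest neuroectoderm library replicate 1, both among the libraries that stood apart. The part of these libraries in the low precursor values was not tested further.

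**Figure D4:**
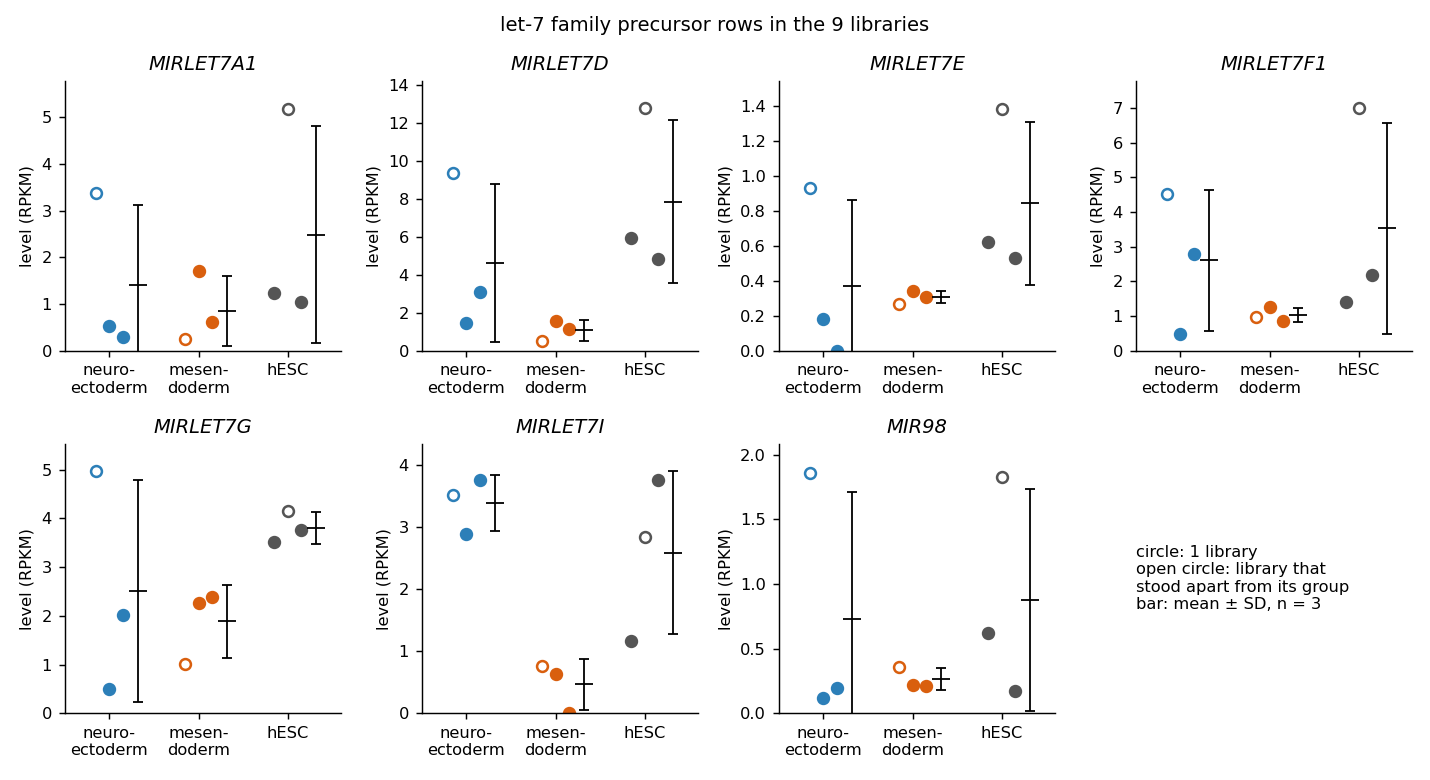
Level in RPKM (y axis, from 0) of the 7 let-7 family precursor rows in neuroectoderm, mesendoderm and hESC; circles are libraries, open circles the 3 that stood apart, bars the mean ± SD of 3, cut off at 0. MIRLET7I is at 0.76 RPKM or less in the mesendoderm libraries, and in every other row the open circles of hESC and neuroectoderm are the highest of their group.

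Of 18 genes of let-7 maturation and decay, 5 were higher and 4 lower in neuroectoderm against hESC, 1 higher and 2 lower in mesendoderm against hESC, and 5 higher and 2 lower in neuroectoderm against mesendoderm, with medians of 0.04, -0.01 and 0.09. Among all tested genes, 44.2%, 35.1% and 48.1% were called in these comparisons, with medians of -0.02, -0.02 and -0.01. These shares and medians apply to the lists that follow as well, and no list was tested as a set. ZCCHC11 (TUT4), which adds uridines to let-7 precursors held by LIN28, rose in neuroectoderm. It averaged 14.5 ± 1.29 RPKM in neuroectoderm and 9.32 ± 0.891 RPKM in hESC (SD, n = 3 each; 0.59 ± 0.13, limma adjusted p = 0.00571). Neuroectoderm was also above mesendoderm by 0.79 ± 0.13 for ZCCHC11 (adjusted p = 0.00103). DIS3L2, the nuclease that degrades the tailed precursor, averaged 9.77 ± 1.08 RPKM in neuroectoderm and 7.17 ± 0.369 RPKM in mesendoderm (0.40 ± 0.12, adjusted p = 0.0199). This call was lost without neuroectoderm replicate 2, mesendoderm replicate 2 or mesendoderm replicate 3 (adjusted p = 0.057 to 0.067), and with the replicate block in all 9 libraries or in the 6 of the lineages (adjusted p = 0.0509 to 0.051). DIS3L2 was also higher in neuroectoderm than in hESC, where it averaged 6.49 ± 0.821 RPKM (0.53 ± 0.12, limma adjusted p = 0.00568).

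The Argonaute genes, whose proteins carry the mature microRNA, moved apart. AGO2 averaged 11.6 ± 1.96 RPKM in neuroectoderm, 21.5 ± 0.638 RPKM in mesendoderm and 21.0 ± 1.78 RPKM in hESC. It was lower in neuroectoderm than in hESC (-0.81 ± 0.13, limma adjusted p = 0.00107) and than in mesendoderm (-0.85 ± 0.13, adjusted p = 0.000714). AGO4 was higher than in hESC in both lineages, at 6.95 ± 0.0964 RPKM in neuroectoderm, 5.70 ± 0.334 RPKM in mesendoderm and 3.0 ± 0.31 RPKM in hESC, with limma adjusted p-values of 3.05e-05 in neuroectoderm and 0.000238 in mesendoderm. AGO3 was above mesendoderm in neuroectoderm by 0.42 ± 0.11 (adjusted p = 0.0135), lost without neuroectoderm replicate 3, mesendoderm replicate 2 or mesendoderm replicate 3 (adjusted p = 0.0509 to 0.0589), with the replicate block in the 6 libraries of the lineages (adjusted p = 0.058) and with GC correction and the block together (adjusted p = 0.0659).

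The enzyme DROSHA cuts the let-7 hairpin from its primary transcript, and XPO5 exports it from the nucleus. XPO5 averaged 26.6 ± 0.822 RPKM in mesendoderm and 38.8 ± 3.80 RPKM in hESC (-0.52 ± 0.11, limma adjusted p = 0.00593). It was also lower in neuroectoderm than in hESC, at 29 ± 1.14 RPKM (-0.41 ± 0.11, limma adjusted p = 0.0156). DROSHA averaged 18.2 ± 0.501 RPKM in mesendoderm and 23.1 ± 1.31 RPKM in hESC (-0.33 ± 0.11, adjusted p = 0.0459), a call lost without any 1 of 8 libraries, that is all but neuroectoderm replicate 1 (adjusted p = 0.0559 to 0.154), and with the replicate block (adjusted p = 0.0883). TRIM71 (LIN41), an RNA-binding ubiquitin ligase that is itself a let-7 target, averaged 77.1 ± 22.1 RPKM in neuroectoderm and 117 ± 11.4 RPKM in hESC (-0.63 ± 0.22, adjusted p = 0.0432). That call was lost without any 1 of the hESC or mesendoderm libraries (adjusted p = 0.0548 to 0.128), with the replicate block, and in the fit of only the 6 libraries compared (adjusted p = 0.0602 to 0.0955). The lowest TRIM71 library was neuroectoderm replicate 1, with 51.74 RPKM.

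Among 23 other genes described as let-7 targets, 5 were higher and 9 lower in neuroectoderm against hESC, 2 higher and 5 lower in mesendoderm against hESC, and 5 higher and 4 lower in neuroectoderm against mesendoderm, with medians of -0.09, -0.17 and -0.05. The shares of all tested genes called were 44.2%, 35.1% and 48.1%. TRIM71, DICER1, IGF1R, INSR and IRS2 also stand in other lists given here. The oncogene MYC averaged 8.10 ± 0.802 RPKM in neuroectoderm, 20.3 ± 3.53 RPKM in mesendoderm and 23.0 ± 3.78 RPKM in hESC, lower in neuroectoderm than in hESC (-1.39 ± 0.16, limma adjusted p = 0.000138) and than in mesendoderm (-1.22 ± 0.16, adjusted p = 0.000254). MYCN, its relative, was at 11 ± 5.06 RPKM in neuroectoderm and 29 ± 5.29 RPKM in hESC (-1.41 ± 0.33, adjusted p = 0.00737). RRM2, which makes deoxynucleotides for replication, was at 15.9 ± 4.37 RPKM in neuroectoderm and 31.1 ± 1.72 RPKM in hESC (-0.96 ± 0.19, adjusted p = 0.00324).

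TGFBR1, the type I receptor of TGF-beta and a target of the SB431542 used to make neuroectoderm, averaged 27.6 ± 3.94 RPKM in neuroectoderm, 8.36 ± 0.977 RPKM in mesendoderm and 9.49 ± 2.27 RPKM in hESC. It was higher in neuroectoderm than in hESC (1.46 ± 0.17, limma adjusted p = 0.000146) and than in mesendoderm (1.61 ± 0.17, adjusted p = 6.34e-05). NR6A1, the nuclear receptor GCNF, was at 72.1 ± 3.24 RPKM in neuroectoderm, 30.6 ± 1.17 RPKM in mesendoderm and 68.5 ± 4.40 RPKM in hESC, and it was lower in mesendoderm than in hESC (-1.13 ± 0.11, adjusted p = 7.13e-05). Neuroectoderm exceeded mesendoderm by 1.21 ± 0.11 for NR6A1 (adjusted p = 2.62e-05). CCND2, a cyclin of the G1 phase, went the other way, at 34.5 ± 3.77 RPKM in neuroectoderm, 72.6 ± 13.7 RPKM in mesendoderm and 44.4 ± 2.50 RPKM in hESC (0.68 ± 0.16 in mesendoderm against hESC, adjusted p = 0.00992; -1.04 ± 0.16 between the lineages, adjusted p = 0.00065). HIC2 was higher in mesendoderm than in hESC by 0.55 ± 0.11 (adjusted p = 0.00404), and not past the threshold after rescaling without small RNA genes (adjusted p = 0.0576). In neuroectoderm HIC2 was above hESC by 0.51 ± 0.11 (limma adjusted p = 0.0043).

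IGF2, the message after which the IGF2BP proteins are named, was low, with 1.58, 1.66 and 1.38 RPKM in neuroectoderm, 2.76, 0.54 and 1.38 RPKM in mesendoderm and 0.09, 0.16 and 0.16 RPKM in hESC. Every differentiated library lay above every hESC library, by 1.16 ± 0.26 in neuroectoderm (limma adjusted p = 0.00665) and 1.08 ± 0.26 in mesendoderm (adjusted p = 0.0122). Of the 8 genes of IGF2 and its receptors, 6 were tested. H19 and IGF1 were under the minimum, at 0.04 to 0.51 RPKM and 0.07 to 0.31 RPKM. In all, 2 were higher and 1 lower in neuroectoderm against hESC, 2 higher and 2 lower in mesendoderm against hESC, and 1 each way between the lineages, with medians of -0.05, 0.13 and -0.10. Over all tested genes the called shares were 44.2%, 35.1% and 48.1%.

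The insulin receptor gene INSR fell in both lineages, to 4.79 ± 0.398 RPKM in neuroectoderm and 5.27 ± 0.48 RPKM in mesendoderm, against 8.01 ± 0.554 RPKM in hESC (-0.64 ± 0.10 in neuroectoderm, limma adjusted p = 0.000818; -0.52 ± 0.10 in mesendoderm, adjusted p = 0.00337). Of the adaptors that pass on the signal, IRS1 averaged 11.3 ± 2.22 RPKM in neuroectoderm, 17.6 ± 3.07 RPKM in mesendoderm and 7.30 ± 0.245 RPKM in hESC, and rose in mesendoderm by 1.15 ± 0.17 (adjusted p = 0.000728). The IRS1 difference of 0.55 ± 0.17 in neuroectoderm against hESC (adjusted p = 0.0249) was lost without any 1 of the hESC libraries or neuroectoderm replicate 2 or 3 (adjusted p = 0.0615 to 0.0907). That of -0.60 ± 0.17 between the lineages (adjusted p = 0.0156) was lost without mesendoderm replicate 1 or 3 (adjusted p = 0.0566 to 0.0606). It was also lost after rescaling without small RNA genes, without the 3 libraries that stood apart and with the replicate block in the 6 libraries of the lineages (adjusted p = 0.0528 to 0.0854). IRS2 was at 3.41 ± 0.482 RPKM in neuroectoderm, 2.07 ± 0.484 RPKM in mesendoderm and 4.12 ± 0.186 RPKM in hESC, lower in mesendoderm than in hESC (-0.75 ± 0.13, adjusted p = 0.0021) and higher in neuroectoderm than in mesendoderm (0.53 ± 0.13, adjusted p = 0.00886).

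Of 8 proteins found in IGF2BP ribonucleoprotein particles, 1 gene was higher and 2 lower in neuroectoderm against hESC, 1 higher and 3 lower in mesendoderm against hESC, and 2 higher and 1 lower in neuroectoderm against mesendoderm, with medians of -0.20, -0.06 and -0.06. For comparison, 44.2%, 35.1% and 48.1% of all tested genes were called. ELAVL1, the message-stabilising protein HuR, averaged 16.2 ± 1.72 RPKM in neuroectoderm, 11.3 ± 1.69 RPKM in mesendoderm and 9.45 ± 0.53 RPKM in hESC, higher in neuroectoderm than in hESC (0.72 ± 0.13, limma adjusted p = 0.00173) and than in mesendoderm (0.49 ± 0.13, adjusted p = 0.0116). FMR1, the fragile X protein, was at 6.93 ± 1.81 RPKM in neuroectoderm, 13.8 ± 2.14 RPKM in mesendoderm and 4.64 ± 0.807 RPKM in hESC, higher in mesendoderm than in hESC (1.39 ± 0.18, adjusted p = 0.000387) and lower in neuroectoderm than in mesendoderm (-0.92 ± 0.18, adjusted p = 0.00284), the last not past the threshold after rescaling without small RNA genes (adjusted p = 0.077). HNRNPU, SYNCRIP and DHX9, partners that stabilise MYC messages with IGF2BP1, fell in mesendoderm against hESC, with differences of -0.72 ± 0.13 (adjusted p = 0.00268), -0.57 ± 0.12 (adjusted p = 0.0067) and -0.53 ± 0.13 (adjusted p = 0.0137). YBX1, another partner in that complex, did not pass in mesendoderm (-0.08 ± 0.39, adjusted p = 0.895). The DHX9 call was lost without mesendoderm replicate 3 or hESC replicate 3 (adjusted p = 0.0526 to 0.0642) and under quantile normalization (adjusted p = 0.0584).

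SYNCRIP and DHX9 were also lower in neuroectoderm than in hESC, with differences of -0.66 ± 0.12 (limma adjusted p = 0.00227) and -0.55 ± 0.13 (adjusted p = 0.00858), and both calls were lost under rescaling without small RNA genes and under quantile normalization (adjusted p = 0.0559 to 0.231). HNRNPU was at 91.8 ± 10.2 RPKM in neuroectoderm and 66.2 ± 0.781 RPKM in mesendoderm (0.46 ± 0.13, adjusted p = 0.0179), lost without neuroectoderm replicate 3, mesendoderm replicate 2 or mesendoderm replicate 3 (adjusted p = 0.0554 to 0.0637), and with the replicate block in all 9 libraries or in the 6 of the lineages (adjusted p = 0.0518 to 0.0555).

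The IGF2BP proteins also read the message mark m6A. Of 12 genes that write, read or erase it, 1 was higher and 0 lower in each lineage against hESC, and 2 were higher and 1 lower in neuroectoderm against mesendoderm, with medians of 0.01, -0.02 and -0.02. All tested genes were called at shares of 44.2% (neuroectoderm against hESC), 35.1% (mesendoderm against hESC) and 48.1% (between the lineages). The demethylase gene FTO averaged 16.7 ± 0.628 RPKM in neuroectoderm, 11 ± 0.406 RPKM in mesendoderm and 9.78 ± 1.13 RPKM in hESC, higher in neuroectoderm than in hESC (0.72 ± 0.10, limma adjusted p = 0.000509) and than in mesendoderm (0.57 ± 0.10, adjusted p = 0.00183). The reader YTHDF1 was at 11.5 ± 2.41 RPKM in neuroectoderm, 18 ± 1.69 RPKM in mesendoderm and 11.2 ± 1.69 RPKM in hESC. Its rise of 0.65 ± 0.17 in mesendoderm against hESC (adjusted p = 0.0162) was lost without mesendoderm replicate 2 or 3 or hESC replicate 2 (adjusted p = 0.0529 to 0.0617), and its difference of -0.62 ± 0.17 between the lineages (adjusted p = 0.0146) without mesendoderm replicate 2 or 3 (adjusted p = 0.0503 to 0.0536). METTL14, a writer subunit, was above mesendoderm in neuroectoderm by 0.41 ± 0.11 (adjusted p = 0.0122), lost without mesendoderm replicate 3 (adjusted p = 0.0524).

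LIN28 proteins join zinc knuckles to a cold shock domain. Of 5 other genes with such a domain, 1 passed in any comparison, YBX2, at 2.06 ± 0.845 RPKM in neuroectoderm and 6.13 ± 1.96 RPKM in hESC (-1.22 ± 0.27, limma adjusted p = 0.00568). The medians of the 5 were -0.11, -0.08 and -0.03 in neuroectoderm against hESC, mesendoderm against hESC and neuroectoderm against mesendoderm. In the same order, 44.2%, 35.1% and 48.1% of all tested genes were called. YBX1, among the 5, also stands in the list of IGF2BP partners.

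The HMGB and HMGN genes code for other abundant chromatin proteins that are named with HMGA but are built differently. Of 8 tested, 3 were higher and 4 lower in neuroectoderm against hESC, 1 higher and 2 lower in mesendoderm against hESC, and 2 each way between the lineages, with medians of -0.28, -0.07 and -0.12. Beside these stand 44.2%, 35.1% and 48.1% of all tested genes called. HMGB2 had 205.81, 202.63 and 176.57 RPKM in neuroectoderm, 120.65, 102.73 and 110.74 RPKM in mesendoderm, and 81.20, 79.17 and 87.20 RPKM in hESC, with no overlap between groups. It was higher in neuroectoderm than in hESC (1.23 ± 0.14, limma adjusted p = 0.000113) and than in mesendoderm (0.80 ± 0.14, adjusted p = 0.00126). Its difference of 0.43 ± 0.14 in mesendoderm against hESC (adjusted p = 0.0398) was lost without any 1 of the mesendoderm or hESC libraries or neuroectoderm replicate 3 (adjusted p = 0.0527 to 0.133). It was also lost after rescaling without small RNA genes, under upper-quartile scaling, under quantile normalization and with the replicate block (adjusted p = 0.0944 to 0.279).

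HMGB3 ran opposite to HMGB2, at 23.5 ± 1.59 RPKM in neuroectoderm, 34.2 ± 1.95 RPKM in mesendoderm and 51.4 ± 1.09 RPKM in hESC. It was lower in neuroectoderm (-1.10 ± 0.11, limma adjusted p = 4.51e-05) and mesendoderm (-0.57 ± 0.11, adjusted p = 0.0029) than in hESC, and lower in neuroectoderm than in mesendoderm (-0.52 ± 0.11, adjusted p = 0.00313), the last not past the threshold after rescaling without small RNA genes or quantile normalization (adjusted p = 0.0688 to 0.225). HMGN5 fell in both lineages, with differences of -0.99 ± 0.16 in neuroectoderm (adjusted p = 0.000879) and -0.90 ± 0.16 in mesendoderm (adjusted p = 0.00211). HMGN3 was lower and HMGN4 higher in neuroectoderm than in mesendoderm, with differences of -0.75 ± 0.18 (adjusted p = 0.00718) and 0.49 ± 0.12 (adjusted p = 0.00997).

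HMGN2 rested on uneven libraries, with 54.76, 174.91 and 126.64 RPKM in neuroectoderm and 56.66, 37.11 and 55.36 RPKM in hESC. Neuroectoderm replicate 1 lay within the hESC range. The difference of 1.11 ± 0.40 (limma adjusted p = 0.0476) was lost without any 1 of 8 libraries, all but neuroectoderm replicate 1 (adjusted p = 0.0571 to 0.139). It was also lost with no filter on low values, in the fit of only the 6 libraries compared and with the replicate block (adjusted p = 0.0553 to 0.0875).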

How the data were processed

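The authors deposited 1 table of RPKM values for 38759 RefSeq transcripts in 9 libraries. Per the submitters' processing notes, reads were handled with TopHat, TopHat2 2.0.13 and Bowtie2 on hg19. The counter, its strand setting and its rule for multiply matching reads were not given in the sources used here. Per the labels' protocols, total RNA from a microRNA isolation kit was DNase-treated and cleared of ribosomal RNA before Ion Torrent library preparation. Samples were grouped by their titles.

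Each symbol was represented by the row with the highest mean over the 9 libraries, and tests covered the 14473 genes averaging 0.5 RPKM or more. The scale was log2(RPKM + 1), which understates changes at low levels. A linear model of the 3 groups was fitted to all 9 libraries with limma 3.58.1 (R 4.3.3) and its mean-variance trend. The p-values, from tests of both directions, were adjusted after Benjamini-Hochberg over the 14473 genes and called under 0.05. The procedure was tested on simulated data. Noise there was independent for each gene and library, unlike the deviations across genes that followed GC content in these libraries. Reads behind a value were estimated from the steps of the low values, of which 96.9% to 99.4% were whole within 0.1 of a read (156 to 185 values a library). 3 reads on 1 kb then amount to 0.0429 to 0.0814 RPKM, which covers counting error only. GC content was known for 95.9% of tested genes. Transcript positions and UTRs are from GENCODE v29 (GRCh38), matched through RefSeq accessions, and microRNA sequences from RefSeq (GRCh38.p14).

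The members and the 8 other gene lists were chosen with earlier results of these data known. Of each list the up to 4 genes with the largest change past the threshold are named per comparison, and per member the 3 genes with the nearest profile. The differences of XPO5, DIS3L2 and HIC2 between neuroectoderm and hESC were added after their values were seen. They were not followed under the alternatives. Alternatives covered the pseudocount, the minimum level, scaling, the model, the choice of row, the replicate block and left-out libraries. A correction for GC content, alone and with the block, and the block in only the 6 libraries of the lineages were chosen after seeing the data. Which 3 libraries to leave out together was likewise read from their deviations in these data. Neuroectoderm and mesendoderm libraries of the same number deviated together from their group means (correlations across genes of 0.229 to 0.392 in 3 of 3 pairs), so the numbers were taken to pair these groups, by the data and not by the labels. Libraries of different number in these groups had -0.371 to 0.241. Neuroectoderm replicate 3 had 0.241 with mesendoderm replicate 2 and 0.229 with mesendoderm replicate 3, so the pairing of replicates 2 and 3 is an assumption. Same-number correlations were -0.738 to 0.401 for neuroectoderm with hESC and -0.485 to 0.0583 for mesendoderm with hESC, so the numbers do not pair either with hESC.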

Additional observations from a re-analysis of the deposited data

Results flagged for a closer look

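The change against hESC differed between neuroectoderm and mesendoderm for 5 members, by the limma contrast of the lineages, which is also the test of the difference between their changes. The change in neuroectoderm minus that in mesendoderm was 0.65 for LIN28A (adjusted p = 0.00633), 0.52 for LIN28B (adjusted p = 0.0216), 0.37 for IGF2BP1 (adjusted p = 0.0249) and 0.43 for IGF2BP3 (adjusted p = 0.0119). It was -0.38 for HMGA2 (adjusted p = 0.0445), which was higher in mesendoderm. All 3 neuroectoderm libraries lay on the named side of all 3 mesendoderm libraries for each of the 5 genes. Among all tested genes, 48.1% were called in this contrast and 57.2% had no overlap between these groups. The 5 genes were picked by the call, so their separation is not added support. The differences for LIN28A and IGF2BP3 held under all 26 alternatives. With the replicate number as a block in the 6 libraries of the lineages, those for IGF2BP1 (adjusted p = 0.0814) and HMGA2 (adjusted p = 0.067) did not pass. Groups of 3 libraries are too small for a test of single outlying samples, but each library was left out in turn. The LIN28B call was lost without mesendoderm replicate 2 or 3. That of IGF2BP1 was lost without replicate 2 or 3 of either lineage, and that of HMGA2 without any 1 of 6 libraries.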

How the results depend on the processing

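Over the 21 results on members and 25 alternatives each, or 26 between the lineages, 473 of 532 values kept their direction and their side of the threshold, 37 lost the call, 14 gained it and 8 turned sign. All 8 turned from differences that had not passed. HMGA1 in neuroectoderm against mesendoderm (-0.06) became 0.17 under rescaling without small RNA genes, 0.04 under upper-quartile scaling, 0.16 under quantile normalization, 0.15 without the 3 libraries that stood apart, -0.21 to 0.23 when 1 library was left out (0.23 without neuroectoderm replicate 1), and 0.05 under GC correction with and without the replicate block. IGF2BP1 in neuroectoderm against hESC became 0.08 under quantile normalization. Rescaling without small RNA genes moved the median of all genes to 0.08 in neuroectoderm against hESC and 0.17 between the lineages, so scaling is a limit for differences of that size.

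Members called in neuroectoderm against hESC numbered 1 under rescaling without small RNA genes, under quantile normalization and in the fit of only the 6 libraries of these groups, and 0 to 3 when 1 library was left out. Between the lineages they numbered 3 in the fit of 6 libraries, 3 with the replicate block in all 9 libraries and 3 with the block in those 6, and 2 to 6 when 1 library was left out. In mesendoderm against hESC they numbered 4 or 5 throughout. With every transcript row tested on its own, 12644, 9911 and 13858 of 27809 rows were called in neuroectoderm against hESC, mesendoderm against hESC and neuroectoderm against mesendoderm, a change that comes from the larger number of rows. The block in those 6 libraries ended no call of a named gene between the lineages other than HMGA2, IGF2BP1, AGO3, DIS3L2, IRS1 and HNRNPU. The cause of the other changes was not tested. Few reads limit the let-7 rows, and IGF2, H19 and IGF1 were low.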
